A study of Homo sapiens with 6 samples.

Results

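Telomerase and the shelterin complex were read from 12 probe sets of 8 genes, out of 22215 probe sets and 11963 singly annotated genes on each array. Of 10 listed genes (TERT, TERF1, TERF2, TERF2IP, TINF2, POT1, ACD, TEP1, TNKS and PINX1), a probe set was taken where the platform annotation gave it exactly 1 gene symbol and that symbol was among the 10. TEP1 and PINX1 had no such probe set in the annotation used here and were not analysed. The cells were HCT116, an established human colon cancer line, and all of them carried a stable lentiviral hairpin delivered in the FUGW vector. The hairpin was directed against NFX1-91 in 3 samples and against β-galactosidase, a bacterial enzyme that human cells lack, in the 3 control samples. The labels do not say whether a hairpin population was a pool or a clone, nor whether replicates were separate cultures. The p-values therefore rest on the spread of these arrays alone, and that spread may be technical.

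Telomerase adds repeats to chromosome ends, and TERT is its catalytic subunit, usually the limiting one in human cells. Shelterin is the protein complex that sits on those repeats: TERF1 and TERF2 bind the double-stranded repeat, TERF2IP (RAP1) rides on TERF2, TINF2 (TIN2) bridges the factors, and ACD (TPP1) joins TINF2 to POT1, which binds the single-stranded end. ACD also recruits telomerase, and TNKS (tankyrase) releases TERF1 from telomeres by poly(ADP-ribosyl)ation. NFX1-91 is known as a repressor that acts at the TERT promoter near an E-box, a short element that MYC and USF factors bind.

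Promoter stretches are shown for TERT, the published target, and for TINF2, ACD and TERF2IP. Promoters were looked up for 6 members, of which TERT, TERF2IP, TINF2, POT1 and ACD had a window and TERF2 had none. Among those 5, TINF2 and ACD changed most. TERF2IP came next on the log2 scale used for the fit, with a change of 0.3435 against 0.324 for TERT. That order depends on the scale: as a ratio of mean signals, TERT rose more than TERF2IP (1.335 against 1.277). TERF1 and TNKS were not looked up. Each stretch holds 100 bases from RefSeq on GRCh38.p14, on the strand of the gene, and capitals mark 2 motifs. The first is the E-box, which has the same letters on either strand: CACGTG. The second is the GC box, a binding element of SP1 that was searched for in its forward spelling, GGGCGG, as well as in the spelling that it has on the opposite strand of the promoter, CCGCCC. The arrays' own build is not named in the files, and these coordinates belong to RefSeq alone. TERT, chr5:1295169-1295268, minus strand, bases 200 to 101 before the start of the gene; TINF2, chr14:24242675-24242774, minus strand, ACD, chr16:67660261-67660360, minus strand, and TERF2IP, chr16:75647673-75647772, plus strand, each the 100 bases before the start:
TERT: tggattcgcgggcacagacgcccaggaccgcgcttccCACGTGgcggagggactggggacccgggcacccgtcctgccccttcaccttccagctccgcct
TINF2: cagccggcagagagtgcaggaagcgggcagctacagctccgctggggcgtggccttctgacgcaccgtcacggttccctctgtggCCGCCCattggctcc
ACD: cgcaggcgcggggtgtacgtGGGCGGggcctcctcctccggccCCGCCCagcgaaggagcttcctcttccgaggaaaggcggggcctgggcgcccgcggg
TERF2IP: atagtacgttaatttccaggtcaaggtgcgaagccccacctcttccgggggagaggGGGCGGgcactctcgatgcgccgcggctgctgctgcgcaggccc
RefSeq listed 2 starts for TINF2, and only the one furthest upstream was used. Both strands of the 250 bases before each start used were searched, and the 2 motifs did not overlap. TERT held 1 E-box, at bases 163 to 158 before its start, and 2 GC boxes. TINF2, ACD, TERF2IP and POT1 held 0 E-boxes, with 1, 2, 1 and 2 GC boxes. Of 35116 RefSeq windows of that length, 6.34% held an E-box and 42.6% a GC box. A match is a description of the letters and does not show binding.

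The 12 probe sets gave signals on a linear scale, set so that the mean of each array was 500. Changes were fitted on log2(signal + 16), a scale that understates the change of dim probe sets, and a probe set was called at a Benjamini-Hochberg adjusted p below 0.05 (limma, two-sided) over all 22215. Arrays of the same group had a Pearson correlation of at least 0.992, arrays of different groups one of at most 0.985, and the number of arrays limits the precision. The epithelial markers EPCAM, KRT8, KRT18, KRT19, CDH1 and CLDN7 read above the offset of 16 on all arrays, and GPA33, another colon marker, lay below it on all 6. Summed over the list, those markers ran from 24750 to 25530 in control arrays and from 28600 to 28740 in NFX1-91 shRNA arrays. Of the 8 probe sets 2 were higher (KRT18 and KRT8) and 3 lower (CLDN7, CDH1 and EPCAM). The sum follows its brightest probe sets: the mean of KRT18 rose from 7403 to 10740, while that of CLDN7 fell from 1506 to 689. Fibroblast markers summed to 425 to 565 in control arrays and 521 to 597 in NFX1-91 shRNA arrays over 16 probe sets, of which 1 was higher (COL1A1), 0 were lower and 7 were below the offset on all arrays, those of LUM and PDGFRB among them. Blood cell markers summed to 107 to 126 and 131 to 163 over 9 probe sets, of which 1 was higher (HBB) and 6 were below the offset on all arrays, those of LYZ and CD14 among them. The part of these shifts in the results was not tested.

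The hairpin's own target, NFX1, was read by 3 probe sets, and the files do not say which splice form each detects. The brightest (202584_at) read 160, 144 and 139 in control arrays and 124, 139 and 138 in NFX1-91 shRNA arrays, overlapping groups whose log2 fold change of -0.13 was not called (SE 0.096, adjusted p = 0.400). The dimmest (210268_at) fell from 16.8, 17.7 and 24.4 to 8.87, 8.83 and 4.56, and its groups did not overlap (log2 fold change -0.60, SE 0.143, adjusted p = 0.0137). The size of that change depended on the offset, with -0.23 at an offset of 64, -1.32 at an offset of 1 and -1.45 with none, and it was called at each. The third (202585_s_at) had overlapping groups and a log2 fold change of -0.06. A fall was thus called for 1 of 3 probe sets, a dim one.

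Within shelterin the largest change was a fall of TINF2, and ACD, TERF1 and TERF2 fell too, whereas TERF2IP rose. Of the 8 probe sets of the 6 shelterin genes 5 were called, TERF1 by 1 of its 2, and TERT, POT1 and TNKS had none. The share of all genes with a called probe set was not computed. In all, 5 of 12 probe sets (41.7%) were called, 1 higher and 4 lower, against 25.7% of all probe sets (12% higher and 13.7% lower). Brighter probe sets were called more often: of the 11107 above the median mean signal, 44.7% were called, 20.6% higher and 24.1% lower. Of the members 9 lay above that median, the 8 of shelterin among them. Of the 9, 5 (55.6%) were called, 1 higher and 4 lower, while 0 of the 3 below it were. The shares rest on few probe sets, and nothing is read from them about the members as a set. The median log2 fold change was -0.15 over the members and 0.01 over all probe sets. For 7 of the 12 the groups did not overlap, 2 being higher and 5 lower in NFX1-91 shRNA arrays, against 39% of all probe sets (19.3% higher and 19.7% lower).

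**Figure D1:**
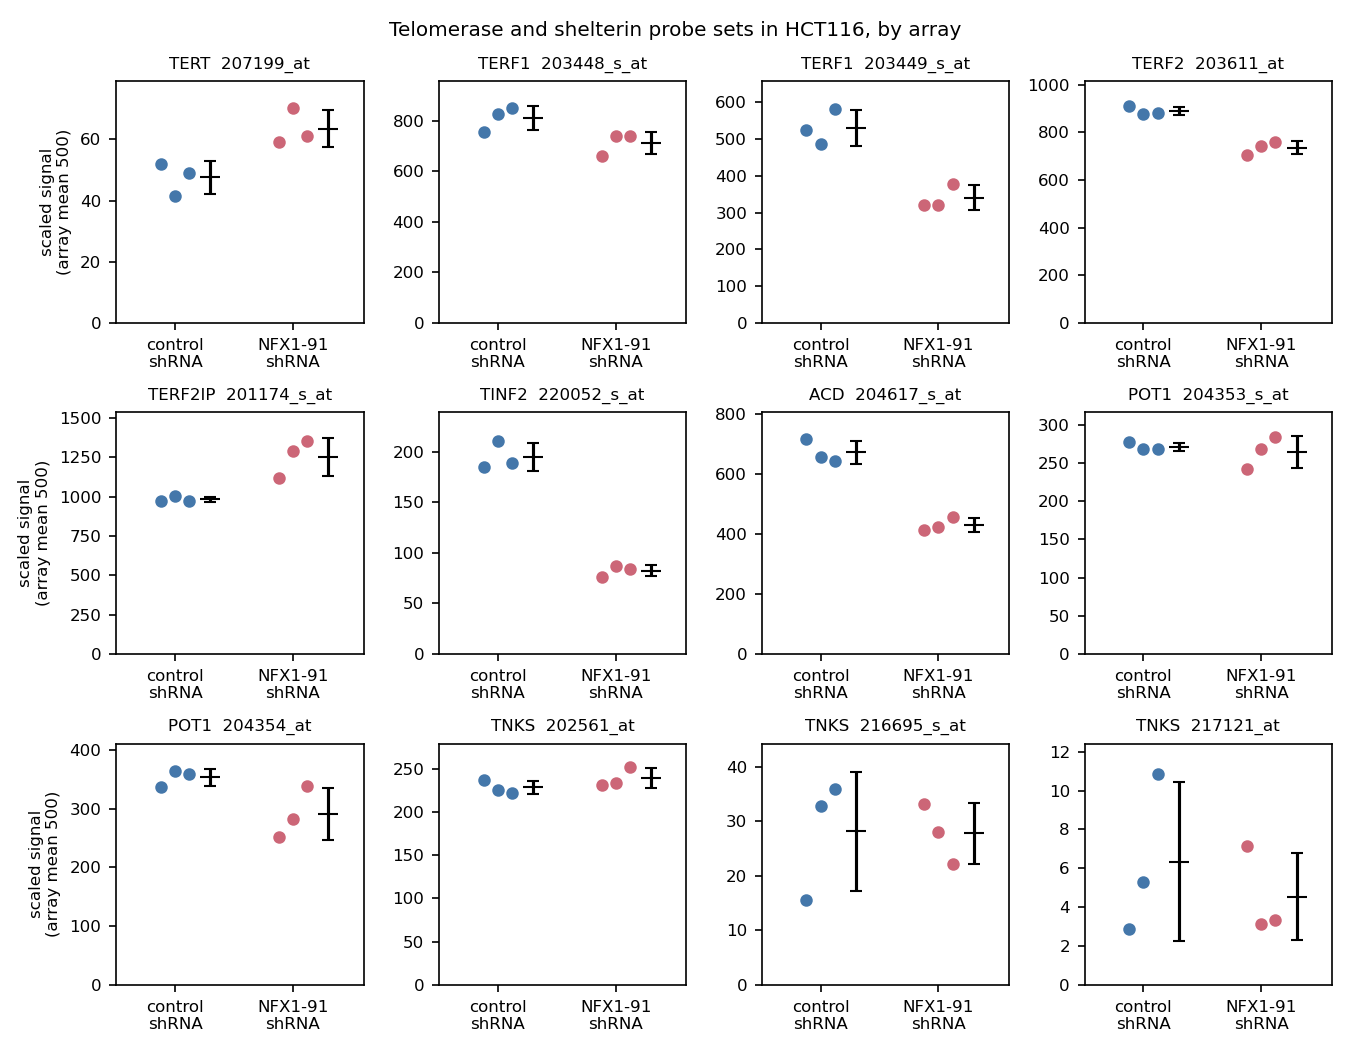
Scaled signal (linear axis from 0, array mean 500) of the 12 probe sets on each array, with control shRNA arrays in blue, NFX1-91 shRNA arrays in red, and the mean and SD of each group (n = 3) in black. The 3 red points of TINF2, ACD, TERF2 and both TERF1 probe sets lie below the blue ones, those of TERF2IP and TERT lie above, and the POT1 and TNKS groups overlap.

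TERT, the catalytic subunit, was read by 1 probe set (207199_at) on chromosome 5. Its signal was 52.0, 41.6 and 49.2 in the control arrays and 59.0, 70.3 and 61.3 in the NFX1-91 shRNA arrays. Every NFX1-91 shRNA array read above every control array, by a margin of a few units between the nearest arrays. The means were 47.6 ± 5.38 and 63.5 ± 5.98 (SD, n = 3 per group), a ratio of 1.33 on the linear scale. The log2 fold change was 0.32 with a 95% interval from 0.04 to 0.61, and in limma the unadjusted p was 0.0302 and the adjusted p 0.0975. The increase was not called in the comparison of all probe sets, nor in 15 of 15 alternative settings, in which the adjusted p ran from 0.0521 to 0.278 and the log2 fold change stayed between 0.19 and 0.42. With 1 value per gene, adjusted over 11963 genes, the adjusted p was 0.0748 by the brightest probe set and 0.0501 by the mean, 2 rules that differ for TERT only through the other genes. Its mean signal lay at percentile 44.2 of all probe sets, below the median. Of all probe sets 88.1% had a log2 fold change at or below that of TERT.

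The probe sets most like TERT over the 6 arrays were sought among 9972 single-gene probe sets brighter than the median, by the Pearson correlation of log2 values. Those near the top read MTMR4 (r = 0.985), the chromatin remodelling subunit BAZ1A (0.985) and the RNA-binding protein RBM23 (0.980), and 47 of the 9972 had an r above 0.95. RBM23 was called higher (log2 fold change 0.25, adjusted p = 0.0213), and MTMR4 (0.12) and BAZ1A (0.18) were not called. The points of such a correlation share their arrays and the split into 2 groups, so it describes only how these 6 arrays are ordered.

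TINF2, the bridging subunit, fell most of all members. Its probe set (220052_s_at, chromosome 14) read 185, 211 and 189 in control arrays and 76.4, 87.2 and 84.3 in NFX1-91 shRNA arrays. The lowest control array was more than double the highest NFX1-91 shRNA array. The means were 195 ± 13.8 and 82.6 ± 5.59 (SD, n = 3 per group), 2.36-fold lower with the NFX1-91 hairpin, and the log2 fold change was -1.10 (95% interval -1.32 to -0.87, adjusted p = 8.64e-05). Only 184 of the 22215 probe sets (0.828%) had a log2 fold change at or below this one. In bulk RNA, fewer cells with a transcript and less of it per cell cannot be told apart.

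ACD, which links TINF2 to POT1 and brings telomerase to the chromosome end, fell by about as much as 1 of the TERF1 probe sets, and the order of those falls changed between settings. Its probe set (204617_s_at, chromosome 16) read 715, 655 and 643 in control arrays and 411, 422 and 455 in NFX1-91 shRNA arrays, with a wide gap between the groups. The signal was 1.56-fold lower (671 ± 38.6 against 430 ± 23.1, SD, n = 3 per group), and the log2 fold change was -0.62 (95% interval -0.78 to -0.47, adjusted p = 0.000208). Both partners of this bridge, TINF2 and ACD, kept their call and direction in 15 of 15 alternative settings each, with highest adjusted p values of 0.00135 and 0.00321.

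TERF1, the repeat-binding factor that tankyrase removes, was read by 2 probe sets, both on chromosome 8, that differed in size. The probe set 203449_s_at fell from 524, 485 and 582 to 320, 322 and 379, 1.56-fold lower (log2 fold change -0.62, 95% interval -0.83 to -0.41, adjusted p = 0.00123). The brighter 203448_s_at read 757, 827 and 849 in control arrays and 662, 738 and 739 in NFX1-91 shRNA arrays, a log2 fold change of -0.18 with an adjusted p of 0.0808 in limma. Neither probe set had overlapping groups, and all NFX1-91 shRNA arrays were the lower ones. Without replicate 1 of the control, the brighter probe set was called as well (log2 fold change -0.23, adjusted p = 0.0283). That was 1 of 15 alternatives, and over all of them its adjusted p ran from 0.0283 to 0.225 and its log2 fold change from -0.23 to -0.13.

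On each array the log2 value of 203449_s_at was set against that of 203448_s_at to compare the responses. That difference ran from -0.75 to -0.52 in control arrays and from -1.16 to -0.94 in NFX1-91 shRNA arrays, a change of -0.44. The exact two-sided permutation p was 0.1, the smallest that 3 against 3 arrays can give, and 0.1 after adjustment over the 2 genes compared this way. With the brightest probe set taken for each gene, TERF1 was not called (adjusted p = 0.0571 over 11963 genes), and with the mean of its probe sets it was (log2 fold change -0.40, adjusted p = 0.0023). These pairs were chosen after their values were seen.

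TERF2, which shapes and protects the telomeric end, fell by a small amount with tight replicates. Its probe set (203611_at, chromosome 16) read 911, 878 and 882 in control arrays and 707, 742 and 761 in NFX1-91 shRNA arrays. The groups did not overlap, and the signal was 1.21-fold lower (890 ± 18.4 against 737 ± 27.1, SD, n = 3 per group). The log2 fold change was -0.27 (95% interval -0.38 to -0.15, adjusted p = 0.00447).

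TERF2IP, the partner that depends on TERF2 to reach telomeres, went the other way. Its probe set (201174_s_at, chromosome 16) read 972, 1003 and 972 in control arrays and 1121, 1289 and 1354 in NFX1-91 shRNA arrays. The control arrays lay close together and the NFX1-91 shRNA arrays were spread more widely above them (982 ± 18.1 against 1254 ± 120, SD, n = 3 per group). It was the only member called higher, 1.28-fold, with a log2 fold change of 0.34 (95% interval 0.19 to 0.50, adjusted p = 0.00626). Over 15 alternatives TERF2 and TERF2IP kept call and direction, with adjusted p values up to 0.0284 and 0.041.

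POT1, the subunit that binds the single-stranded end, was read by 2 probe sets on chromosome 7 and called by neither. The probe set 204353_s_at read 277, 268 and 268 in control arrays and 242, 268 and 283 in NFX1-91 shRNA arrays, with a 95% interval of its log2 fold change from -0.21 to 0.14. The probe set 204354_at read 337, 363 and 359 in control arrays and 252, 283 and 339 in NFX1-91 shRNA arrays, with a fitted change of -0.28 on the log2 scale (SE 0.103, adjusted p = 0.0889 in limma). In this second probe set replicate 3 with the NFX1-91 hairpin read within the control range and the other NFX1-91 shRNA arrays below it. Without that array the log2 fold change was -0.38 and the adjusted p 0.0162, and without replicate 1 of the same group they were -0.18 and 0.241. It was called in 2 of 15 alternatives, this one and the test without dim probe sets (adjusted p = 0.0496), and over all of them the adjusted p ran from 0.0162 to 0.241. The per-array difference between the 2 probe sets changed by -0.24 (exact permutation p = 0.1, adjusted p = 0.1).

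TNKS, the poly(ADP-ribose) polymerase that acts on TERF1, was read by 3 probe sets on chromosome 8, none of them called. The brightest, 202561_at, read 237, 226 and 222 in control arrays and 231, 234 and 252 in NFX1-91 shRNA arrays. Its groups overlapped, and the 95% interval of its log2 fold change ran from -0.11 to 0.23. The other two were dim: 216695_s_at ranged from 15.7 to 36.0 over the 6 arrays, and 217121_at from 2.87 to 10.9, below the offset on all of them. Their log2 fold changes were 0.01 (95% interval -0.45 to 0.48) and -0.11 (-0.47 to 0.25), so changes of moderate size could not be seen there.

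**Figure D2:**
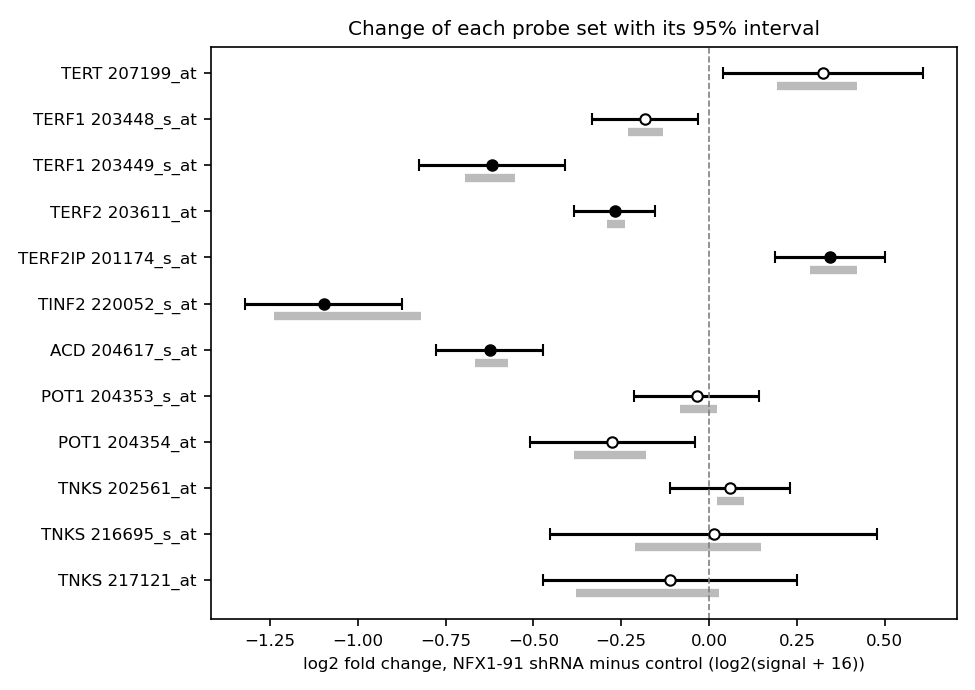
Log2 fold change (NFX1-91 shRNA minus control, on log2(signal + 16)) of each probe set with its 95% interval from limma, filled where the adjusted p was below 0.05, and a grey bar for the range over the alternative settings. The filled points run from TINF2 at -1.10 to TERF2IP at 0.34, and the interval of TERT lies above 0 while its point is open.

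Probe sets whose name ends in _s_at can detect more than 1 transcript. They make up 7 of the 12, and 4 of the 5 called (TINF2, ACD, TERF1 and TERF2IP). TERT, TERF2, TERF2IP, TINF2 and ACD had a single probe set each, so for these genes no other probe set checks the value. Splice forms of TERT and TINF2 are known, and which of them a probe set reads was not tested.

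The other genes of the pathway were taken from 3 lists of telomere genes, without the members. In telomerase assembly and trafficking, the chaperones and RNA-binding proteins that build the enzyme, 14 of 16 genes were measured, and 8 of 20 probe sets (40%) were called, 2 higher and 6 lower. The share called was 25.7% over all probe sets and 44.7% over those above the median mean signal. SHQ1, a chaperone of dyskerin assembly, fell on both of its probe sets, from 576 ± 10.1 to 176 ± 25.5 (219083_at, log2 fold change -1.63, adjusted p = 1.33e-05) and from 571 ± 8.75 to 309 ± 31.1 (63009_at, log2 fold change -0.86, adjusted p = 9.36e-05). The ubiquitin ligase STUB1 fell by 1.04 on the log2 scale (adjusted p = 4.22e-05), and PARN, the nuclease that trims the telomerase RNA, by 0.36 (adjusted p = 0.00168). The 2 that rose were GAR1 (0.23), a protein of the telomerase RNA particle, and the ATPase RUVBL2 (0.20), both named after their values were seen. The median log2 fold change of the list was -0.05.

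In telomere end replication and processing 34 of 39 genes were measured, and 22 of 54 probe sets (40.7%) were called, 9 higher and 13 lower. Beside it stand 25.7% of all probe sets and 44.7% of those above the median mean signal. The single-strand binding subunits RPA2 and RPA3 fell by 0.51 (adjusted p = 5.37e-05) and 0.65 (adjusted p = 0.000194), while RPA1, their partner, rose by 0.26 (201529_s_at) and 0.18 (201528_at). The CST complex, which ends telomerase action and recruits DNA polymerase alpha, also had a called subunit in each direction. CTC1 fell from 195 ± 19.9 to 101 ± 1.65 (log2 fold change -0.85, adjusted p = 0.000326), and STN1 rose from 320 ± 18.0 to 498 ± 42.2 (0.61, adjusted p = 0.000632), SD with n = 3 per group. In the DNA polymerase alpha and primase complex PRIM1 (log2 fold change -0.35) and POLA1 (-0.24) were called lower, and POLA2 (-0.27) and PRIM2 (-0.13) were not called. RPA1 and the members of the polymerase complex were named after their values were seen.

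Among TERT promoter regulators 27 of 32 genes were measured, and 15 of 60 probe sets (25%) were called, 3 higher (3 genes) and 12 lower (9 genes). The list holds NFX1 itself, whose dim probe set 210268_at is among those called lower. NFKB1 fell by 1.23 (adjusted p = 9.27e-06), E2F1 by 0.70 on 2028_s_at (adjusted p = 0.00038) and by 0.36 on 204947_at (adjusted p = 0.0143), and MEN1, a repressor of TERT, by 0.55 (adjusted p = 0.00048). MYC, an activator of TERT through the E-box, rose from 2967 ± 102 to 3775 ± 134 (log2 fold change 0.35, adjusted p = 0.000388). USF2, of another family that binds the E-box, was called lower on 202152_x_at (-0.66), 214879_x_at (-0.51) and 215737_x_at (-0.38). Whether the USF2 probe sets read it independently was not tested. No probe set of MAX, MNT or MXD1, also on the list, was called. USF2, MAX, MNT and MXD1 were named after their values were seen. Over all 3 lists 45 of 134 probe sets (33.6%) were called, 14 higher and 31 lower, against 25.7% of all probe sets on the array and 44.7% of the brighter ones. The lists' medians were -0.05, -0.08 and -0.07, and the members' was -0.15. The members' median rests on few probe sets. Dim probe sets, whose change this scale understates, were not matched between lists and members, so nothing is read from the difference.

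**Figure D3:**
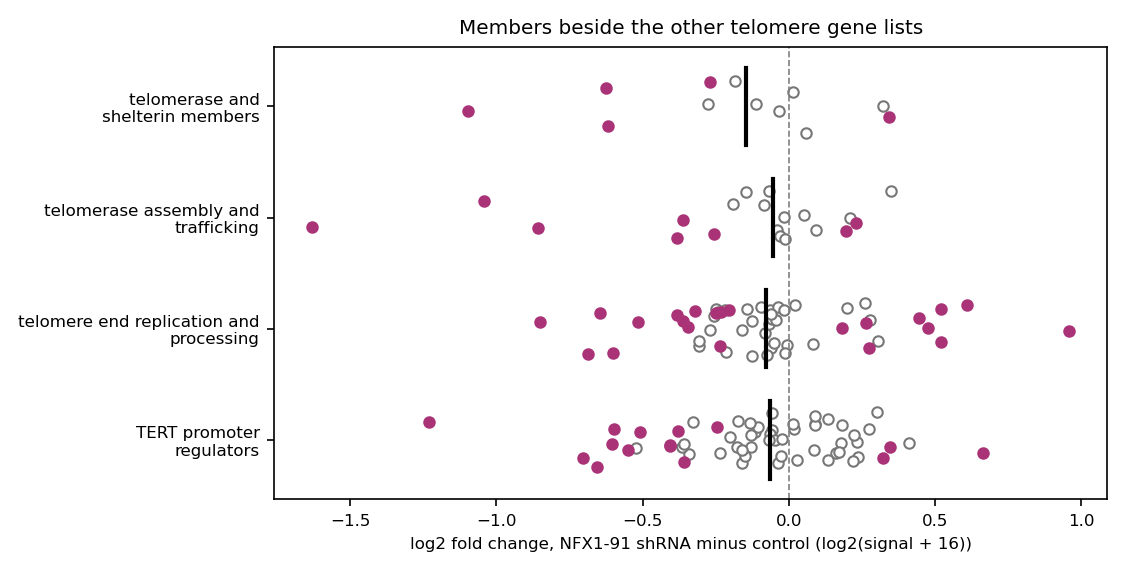
Log2 fold change (NFX1-91 shRNA minus control, on log2(signal + 16)) of each probe set of the members and of the 3 lists, filled where called at an adjusted p below 0.05, with a black bar at each median; vertical scatter within a row only separates the points. Each row holds called probe sets on both sides of 0, and SHQ1 at -1.63 lies farthest to the left.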

How the data were processed

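Biotin-labelled cRNA from total RNA was hybridised to Affymetrix arrays, per the labels' protocols. The deposited table holds linear intensity values that sum to 1 on each array. The summarising and scaling steps before deposit are not given in the sources used here. Each array was multiplied to a mean of 500, and log2(signal + 16) was taken with no other normalization. Between 397 and 451 values per array repeat 1 low value, and 0 of the member values do. Gene names came from the platform annotation, by which 19064 probe sets had 1 gene, 1043 several and 2108 none listed. By gene identifier 19052 matched RefSeq on GRCh38.p14, and 0 symbols changed.

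Groups and replicate numbers came from the labels. The fit over all probe sets used limma 3.58.1 under R 4.3.3 (lmFit, eBayes with a variance trend, unpaired), with Benjamini-Hochberg adjustment, and the steps were tested on simulated data. Figures used Python 3.11.15 and matplotlib 3.10.9. The alternatives were median centring, quantile normalization, leaving out probe sets below the 40th percentile of mean log2 signal, offsets of 1, 64 and none, no variance trend, a robust prior, a replicate block, leaving out each array, and 1 value per gene. Named were all members, NFX1, the 4 called probe sets of each list with the smallest adjusted p, and the 4 most like TERT, of which 1 is not reported here. The members, lists and this rule were chosen with earlier results of these data known.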

Additional observations from a re-analysis of the deposited data

How the results depend on the processing

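The 5 called member probe sets kept call and direction in 15 of 15 alternative settings each. The number of member probe sets called was 5 or 6 in these settings, and with 1 value per gene 4 (brightest probe set) or 5 genes (mean). Leaving out each array in turn gave 5 to 6 called members, 33 to 45 called probe sets of the 3 lists and 3856 to 5962 called probe sets in all, against 5, 45 and 5703. The count of all calls without a variance trend was 4765. The labels give same-numbered arrays of the groups a shared number and nothing more. Their deviations from the group means correlated at -0.06, 0.09 and -0.09, and whether they shared a culture or a batch was not tested. With a replicate block 4914 probe sets in all, 5 members and 40 of the lists were called, and no member changed its call. With centring on the median, 2976 of all probe sets were higher and 2696 lower, against 2656 and 3047, and the member calls stayed at 1 higher and 4 lower. Values below the offset of 16, such as those of TNKS 217121_at, limit what can be seen for dim probe sets.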
